A study of Zea mays with 11 samples.

Results

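The embryo-surrounding region genes esr1 (GRMZM2G046086), esr2 (GRMZM2G315601) and esr3 (GRMZM2G140302) of maize were followed as 3 of the 39656 gene models in the deposited methylation tables, 39475 of which are nuclear. They were picked out by gene identifier and not by a cut on any methylation value, but with earlier results of these data known. All DNA came from the inbred line Mo17, grown in the field, with ears that were self-pollinated, so every group shares 1 genotype. The groups were 8 libraries of hand-dissected endosperm, at stages between 7 and 25 days after pollination (7, 9, 10, 11 and 13 days, then 15, 20 and 25 days), 2 libraries of whole seed, taken at 3 and 5 days, and 1 library of ear leaf at 13 days, which the study used as its control tissue. Each stage had 1 library, so libraries of a tissue stand as its samples, and nothing in the labels says how many ears or seeds went into each. Both seed stages came before the first endosperm stage, so tissue and age cannot be told apart.

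The embryo-surrounding region is a patch of endosperm cells that lines the young embryo, and the ESR genes are known as its markers. Their products are small secreted proteins with a CLE domain, and the CLE family (CLAVATA3/ESR-related) takes part of its name from them. CLE peptides are cut from such precursors and bind receptor kinases with leucine-rich repeats on neighbouring cells. In plants, cytosine methylation occurs in the CG, CHG and CHH contexts, where H stands for A, C or T, and the contexts are kept up in different ways: CG by MET1-type enzymes that copy the mark after replication, CHG by chromomethylases, and CHH by chromomethylases or by RNA-directed methylation. In cereal endosperm some sites are known to carry less methylation than in other tissues, chiefly on the copies inherited from the mother.

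The 3 genes lie one after another on chromosome 1, on the plus strand, with no other gene model of the tables between them. In the coordinates of the deposited tables, for which no genome build is named in the labels or headers, esr2 spans 14258333 to 14259045 (713 bases), esr1 spans 14288359 to 14288941 (583 bases) and esr3 spans 14301650 to 14302205 (556 bases). The gap between esr2 and esr1 is 29.3 kb, the gap between esr1 and esr3 is 12.7 kb, and the whole group spans 43.9 kb. The nearest other gene models are GRMZM2G115131, which ends 88.6 kb before esr2, and GRMZM2G417835, which starts 82.8 kb after esr3. ESR genes are near-identical copies, so short reads can be shared or lost between them, and levels of a single copy are uncertain for that reason. GRMZM identifiers name gene models of another inbred line, B73, while the DNA was Mo17. The labels do not say which line's genome the reads were mapped to or how reads matching several copies were handled, and the part of either in the levels and numbers of calls was not tested. The naming overlaps as well: the RefSeq table used for symbols lists both ESR1 and esr2 among the synonyms of GRMZM2G315601.

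Bisulfite sequencing reports each covered cytosine as methylated or not, and a level is the methylated percentage of these calls over a region, either the gene body or the region upstream of the gene. How far upstream this region reaches is not stated in the labels or headers. Over the bodies and upstream regions of the gene models, counted where any call was methylated, the libraries held from 143230166 calls (leaf) to 223198932 calls (11-day endosperm). The mean upstream CHG level over all gene models was lower in endosperm, at 42.2 to 50.8%, than in whole seed, at 54.6 to 56.0%, and the leaf, at 56.2%, so differences of single genes in CHG stand beside a general one. The tables hold no expression, so the tissue labels could not be checked against marker genes. Differences were tested with limma across all gene models that passed a coverage filter, with Benjamini-Hochberg adjustment over all of them and a threshold of 0.05, and are given as endosperm minus the other tissue in percentage points.

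Across the 3 genes, 2 regions and 3 contexts there were 18 levels per library. The endosperm mean was below the whole-seed mean in 17 of these 18, and in 12 of the 18 all 8 endosperm libraries lay below both whole-seed libraries. By gene, the ranges of endosperm and whole seed were separate in 4 of 6 levels of esr3, 6 of 6 of esr2 and 2 of 6 of esr1. The same separation was seen in 7.3% of all gene models for upstream CG, 31.9% for upstream CHG, 14.5% for upstream CHH, 7.64% for body CG, 15.9% for body CHG and 12.2% for body CHH. Against whole seed, 5 of the 17 levels that could be tested were lower in endosperm after adjustment, 16 had a difference below 0, and 13 had an unadjusted p under 0.05. The 5 were the upstream CHG levels of all 3 genes, the upstream CG level of esr3 and the body CHG level of esr1. Over all gene models tested the share called lower in endosperm was 14.6% for upstream CHG, 0.507% for upstream CG and 4.15% for body CHG, and it was 7.5% for upstream CHH, 1.18% for body CG and 5.42% for body CHH, where no esr gene was called. An upstream CHG call is therefore common in these libraries, whereas an upstream CG call is rare. The median difference over all gene models was below 0 in every region and context, from -8.67 points in upstream CHG to -0.301 in body CHH. Counted in either direction, 13480 of 36072 gene models had an unadjusted p under 0.05 in upstream CHG. The count was 3502 of 36099 in upstream CG and 7861 of 37517 in upstream CHH. In the bodies it was 6315 of 31147 in CHG, 3413 of 30230 in CG and 6078 of 32529 in CHH. All 5 calls ended with day as a covariate (limma adjusted p from 0.0717 to 0.268) and with the 7- and 9-day endosperm libraries alone (0.136 to 0.389).

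The largest upstream differences of the group were those of esr3. Its upstream CHG level in endosperm was 40.5% at day 7, 44.29% at day 9, 31.25% at day 10, 30.43% at day 11, 27.78% at day 13, 32.18% at day 15, 31.37% at day 20 and 30.34% at day 25, against 83.33% and 88.41% in 3- and 5-day whole seed and 90.98% in leaf. The highest endosperm library was thus far below the lowest whole-seed library, and the leaf was above the higher seed library by less than the seeds differed from each other. Upstream of esr3 CHG averaged 33.5% ± 5.72 (SD, n = 8) in endosperm and 85.9% ± 3.59 (SD, n = 2) in whole seed. The difference was -52.4 points (SE 4.26, 95% interval -61.8 to -42.9), with a limma adjusted p of 0.00630. The levels rest on 51 to 161 calls in endosperm, 120 to 138 in whole seed and 133 in leaf. At the shallowest library, 20-day endosperm, 16 of 51 calls were methylated, with a Wilson interval of 20.3 to 45.0%. Because these are bulk tissues, a partial loss in all cells and a full loss in some cells, or on some of the parental copies, cannot be told apart from a level between the extremes.

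Upstream CG of esr3 showed the same order. In endosperm it was 38.75, 46.7, 44.52, 32.7, 53.06, 35.77, 49.44 and 37.41% from day 7 to day 25, against 93.39 and 95.07% in whole seed and 97.66% in leaf. No endosperm library came near the seed libraries, and the leaf lay above the higher seed library by more than the seeds differed. The means were 42.3% ± 7.19 (SD, n = 8) in endosperm and 94.2% ± 1.19 (SD, n = 2) in whole seed, a difference of -51.9 points (SE 5.03, 95% interval -63.1 to -40.8, limma adjusted p = 0.00567). Among the esr genes upstream CG was called for esr3 and not for esr1 or esr2. Without the 3-day whole seed the adjusted p of esr3 was 0.105 for upstream CG and 0.0842 for upstream CHG, at differences of -52.8 and -54.9 points, and without any other single library both stayed under 0.05.

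Upstream of esr2 the difference was smaller. Its CHG level in endosperm had a lowest value of 62.29%, a median of 69.8% and a highest value of 76.12%, against 91.49 and 88.23% in 3- and 5-day whole seed and 91.81% in leaf. All endosperm libraries were below both seed libraries, and the leaf was just above the higher of the seeds. The mean was 69.6% ± 4.74 (SD, n = 8) in endosperm and 89.9% ± 2.31 (SD, n = 2) in whole seed, a difference of -20.2 points (SE 3.65, limma adjusted p = 0.0154). Here the call rested on both seed libraries: without the 3-day seed the adjusted p was 0.168 and without the 5-day seed 0.0955. The CG level of the same region ran from 65.01 over a median of 75.5 to 80.24% in endosperm, against 91.61 and 85.11% in whole seed and 94.49% in leaf. Its ranges did not overlap, and the difference of -14.0 points had the smallest p that the exact two-sided permutation over the 45 ways of dividing these libraries can give (p = 0.022), but it did not pass across all gene models (SE 3.88, limma adjusted p = 0.172).

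Upstream of esr1 CHG differed and CG did not pass. The CHG level ran from 64.86 over a median of 69.7 to 76.7% in endosperm, against 84.11 and 81.14% in whole seed and 84.51% in leaf. The ranges were separate, with means of 69.8% ± 4.35 (SD, n = 8) in endosperm and 82.6% ± 2.10 (SD, n = 2) in whole seed, and the difference was -12.8 points (SE 3.43, limma adjusted p = 0.0383). This was the call that held under the fewest alternatives. It ended without either seed library, and without the 11-, 13-, 15-, 20- or 25-day endosperm library, where the limma adjusted p ran from 0.0543 to 0.259. The CG level ran from 80.13 to 88.67% in endosperm, against 85.04 and 82.38% in whole seed and 91.13% in leaf, so that endosperm and seed overlapped while all endosperm libraries stayed below the leaf. The CG difference from whole seed was 0.22 points, with a 95% interval of -6.26 to 6.70 (SE 2.92, limma adjusted p = 0.993).

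**Figure D1:**
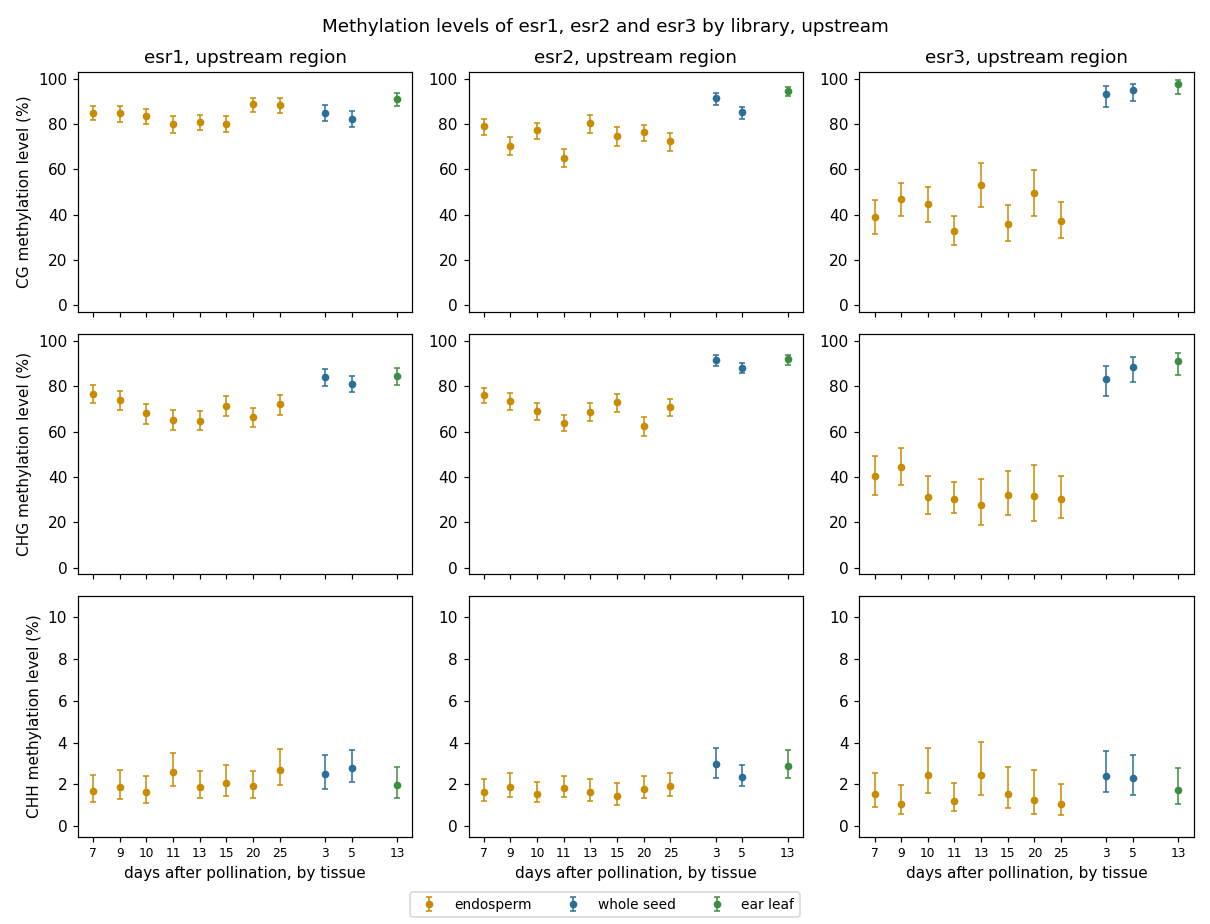
Methylation level in percent (vertical axes, CG, CHG and CHH from top to bottom) upstream of esr1, esr2 and esr3 in each library, ordered by tissue and days after pollination; points are levels and bars are 95% Wilson intervals, which cover counting error only. For esr3 the 8 endosperm libraries lie between 32.7 and 53.06% in CG and between 27.78 and 44.29% in CHG, far below whole seed and leaf, while for esr1 the CG levels of endosperm and seed overlap.

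Set beside all other gene models, the esr genes took very different places. In upstream CG the difference of esr3 was the 5th lowest of 36099 gene models, and in upstream CHG it was the 5th lowest of 36072. Of the 35575 gene models tested in both contexts, esr3 was the only 1 with both differences at or below its own, a cut that esr3 itself sets. At 50 points or more lower in both contexts, a cut close to the values of esr3, it was also the only 1. The median difference of all gene models was -1.38 points in upstream CG and -8.67 points in upstream CHG. In upstream CHG, 7.25% of all gene models lay at or below esr2 and 27.4% at or below esr1. For the 7248 gene models that were at 80% or more in whole seed, like all 3 esr genes, the median difference was -12.9 points, and 0.0414% of these lay at or below esr3, 14.6% at or below esr2 and 51.0% at or below esr1. The upstream CHG difference of esr1 was thus close to the median of highly methylated gene models. With the median of each library subtracted, the difference from whole seed was -40.7 points for esr3 (limma adjusted p = 0.00657), -8.61 points for esr2 (adjusted p = 0.109) and -1.19 points for esr1 (adjusted p = 0.879), so the call of esr3 held and those of esr2 and esr1 ended.

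**Figure D2:**
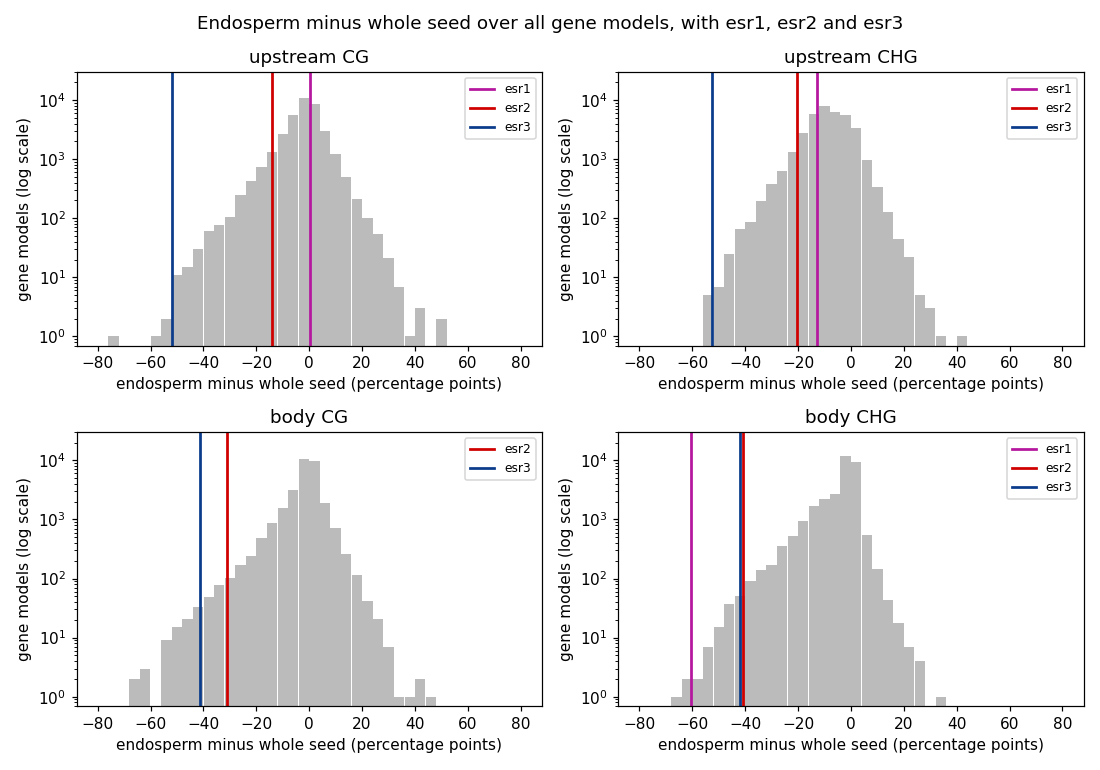
Differences of endosperm minus whole seed in percentage points (horizontal axes) for all gene models tested, as counts on a log scale (grey bars), with vertical lines for the esr genes in upstream CG, upstream CHG, body CG and body CHG. The esr3 line stands at the lower end of both upstream distributions, at -51.9 and -52.4 points, and the esr1 line at the lower end of body CHG, at -60.6 points; esr1 has no line in body CG, where it had too few calls.

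Within the gene bodies esr1 had the largest difference. Its body CHG level in endosperm was 13.04, 10, 27.78, 25, 15, 29.63, 3.57 and 21.62% from day 7 to day 25, against 74.19 and 83.33% in 3- and 5-day whole seed and 79.31% in leaf. Every endosperm library was below every other library by a wide margin, and the leaf lay between the seeds. The means were 18.2% ± 9.25 (SD, n = 8) in endosperm and 78.8% ± 6.46 (SD, n = 2) in whole seed, a difference of -60.6 points (SE 6.61, 95% interval -75.5 to -45.6, limma adjusted p = 0.00571). It was the 3rd lowest of 31147 gene models, whose median was -0.738 points, and of the 2877 gene models at 80% or more in whole seed, a bound that esr1 just missed, the median was -15.0 points.

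The esr1 body was thinly covered, which sets how precisely each level is known. In endosperm it had 69, 10, 18, 20, 20, 27, 28 and 37 CHG calls from day 7 to day 25, against 31 and 36 in whole seed and 29 in leaf. At day 9, 1 of 10 calls was methylated, with a Wilson interval of 1.79 to 40.4%, and at day 20 it was 1 of 28, with an interval of 0.633 to 17.7%. The highest endosperm library, day 15, had an interval of 15.9 to 48.5%, which still ended below that of the lower whole-seed library, 3-day seed, at 56.8 to 86.3%. With calls pooled over the libraries of a tissue, the level was 17.5% in endosperm and 79.1% in whole seed. The call held without each library in turn. With a minimum of 20 calls the gene could not be tested, since the 9- and 10-day endosperm libraries fall short of it.

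Body CHG of esr2 was lower in every endosperm library than in both seeds. It was 69.17, 40.91, 53.85, 54.79, 55.17, 56.86, 21.05 and 53.78% from day 7 to day 25, against 95.83 and 86.92% in whole seed and 73.08% in leaf. The leaf was therefore closer to the 7-day endosperm than to whole seed. The difference of -40.7 points (SE 9.94) had the smallest exact permutation p of 0.022 and missed the threshold across all gene models, with a limma adjusted p of 0.0549. It passed on the arcsine scale (adjusted p = 0.0200), with trended and robust moderation (0.0266), and without the 7-day (0.0306) or the 20-day endosperm library (0.0285).

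Of the 3 body CHG levels, that of esr3 varied most among endosperm libraries. It was 50, 60.87, 84.62, 36.73, 85.71, 15.38, 50 and 33.33% from day 7 to day 25, on 10 to 49 calls, against 92.86 and 95.08% in whole seed, on 56 and 61 calls, and 93.75% in leaf, on 48 calls. All endosperm libraries were below the seeds and the leaf, but those of day 10 and day 13 came within 10 points of the lower whole-seed library. The mean was 52.1% ± 24.5 (SD, n = 8) in endosperm and 94.0% ± 1.57 (SD, n = 2) in whole seed, a difference of -41.9 points (SE 16.9) that did not pass (limma adjusted p = 0.201, exact permutation p = 0.067). In endosperm the spread between libraries was 3.72 times the variance that counting alone gives for body CHG of esr3, 1.50 times for that of esr1 and 5.99 times for that of esr2.

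Body CG had the fewest calls and no call passed. For esr2 it was 74, 41.18, 72.73, 62.5, 65.22, 79.55, 35.29 and 51.11% in endosperm from day 7 to day 25, against 100 and 82.35% in whole seed and 93.33% in leaf, a difference of -31.0 points (SE 11.6, limma adjusted p = 0.322). For esr3 it was 66.67, 63.16, 83.33, 28.57, 60, 20, 60 and 64.29% in endosperm, against 98.39 and 95.52% in whole seed and 95.45% in leaf, a difference of -41.2 points (SE 14.5, limma adjusted p = 0.279). Both genes had separate ranges, while the differences did not pass across all gene models. For esr1 the level was 52, 83.33, 58.33, 48, 0, 72.73, 26.67 and 20.69% in endosperm, against 79.17 and 90% in whole seed and 73.33% in leaf. The 0 at day 13 stands for none methylated of an estimated 11 calls, which allows a level of up to 27.3%. The 9-day library had 6 calls, so esr1 stayed out of the fit across gene models, and the exact two-sided permutation of its difference of -39.4 points gave p = 0.089.

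**Figure D3:**
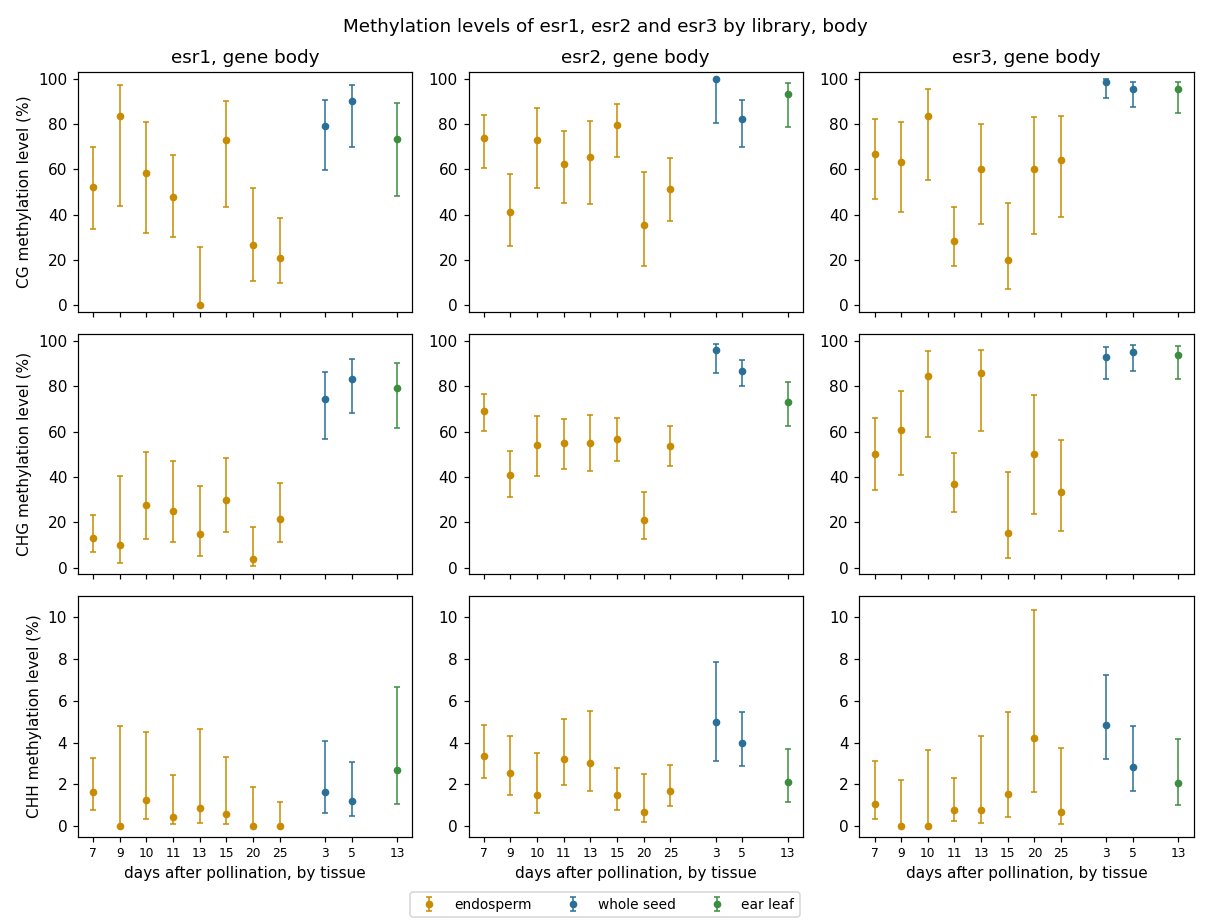
Methylation level in percent (vertical axes, CG, CHG and CHH from top to bottom) in the bodies of esr1, esr2 and esr3 in each library, ordered by tissue and days after pollination; points are levels and bars are 95% Wilson intervals, which cover counting error only. In CHG the esr1 endosperm libraries lie between 3.57 and 29.63%, those of esr2 between 21.05 and 69.17% and those of esr3 between 15.38 and 85.71%, with wider bars where calls were few.

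CHH methylation was low at all 3 genes, and no CHH difference passed. Upstream it averaged 2.04% ± 0.403 in endosperm, 2.63% in whole seed and 1.97% in leaf for esr1, 1.71% ± 0.165 in endosperm, 2.66% in whole seed and 2.89% in leaf for esr2, and 1.57% ± 0.577 in endosperm, 2.35% in whole seed and 1.73% in leaf for esr3 (SD, n = 8 endosperm libraries). The esr2 difference of -0.948 points had the smallest exact permutation p of 0.022 and a limma adjusted p of 0.203. In the bodies CHH averaged 0.596% ± 0.614 in endosperm, 1.41% in whole seed and 2.67% in leaf for esr1, 2.19% ± 0.975 in endosperm, 4.49% in whole seed and 2.09% in leaf for esr2, and 1.14% ± 1.34 in endosperm, 3.85% in whole seed and 2.05% in leaf for esr3. Differences from whole seed were -2.30 points for esr2 (limma adjusted p = 0.0952) and -2.72 points for esr3 (adjusted p = 0.158). For body CHH the exact permutation p was 0.022, the smallest possible, for esr2, 0.044 for esr3 and 0.178 for esr1. Of all gene models, 54.2% had an upstream CHH difference at or below that of esr1, 45.1% at or below esr2 and 49.0% at or below esr3, so upstream CHH of the group sat in the middle of the distribution. Body CHH lay lower in its distribution, with 26.5% of gene models at or below esr1, 8.47% at or below esr2 and 6.90% at or below esr3.

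The number of calls on the genes also differed, as the plot of calls by library shows. Calls of a library are here those recovered or estimated on the bodies and upstream regions of nuclear gene models. The body of esr3 received 1.21 ± 0.533 of every 1000000 calls of a library in endosperm (SD, n = 8, from 0.676 to 2.15), against 3.73 and 3.03 in 3- and 5-day whole seed and 3.03 in leaf. The highest endosperm library was below every other library, the ratio of the means was 0.360, and the exact two-sided permutation gave its smallest p, 0.022. Of 35541 gene models, 0.281% had a ratio at or below this one, against a median ratio of 1.02. Its upstream region had a ratio of 0.822 (exact permutation p = 0.2), with 624 to 1455 calls in endosperm, 1191 to 1245 in whole seed and 1186 in leaf. For esr1 the ratio was 0.736 in the body (exact permutation p = 0.422) and 0.994 upstream, and for esr2 it was 0.871 in the body (exact permutation p = 0.622) and 0.874 upstream (exact permutation p = 0.089). Between tissues the lower number of calls on the esr3 body stood beside lower levels. Within endosperm the order was another: days 10 and 13, with 126 and 157 calls, had the highest body CHG levels, 84.62 and 85.71%, and day 11, with the most calls, 471, had 36.73%, while day 15, also with 157 calls, had the lowest level, 15.38%. The part of the number of calls in the levels was not tested.

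**Figure D4:**
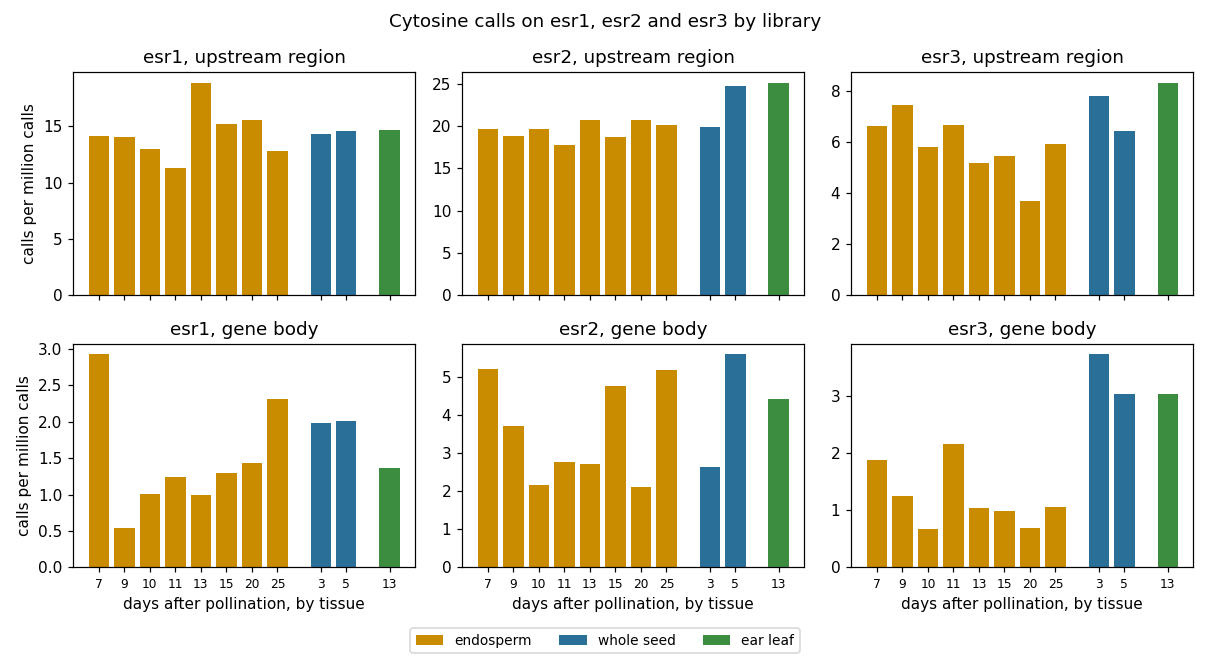
Calls per 1000000 calls of the library (vertical axes, from 0) on the upstream regions (top) and bodies (bottom) of esr1, esr2 and esr3, with 1 bar per library ordered by tissue and days after pollination. On the esr3 body the endosperm bars reach 2.15 at most, below the 3.03 of leaf and 5-day seed; on the other regions endosperm bars reach or pass a seed bar.

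Against ear leaf esr3 upstream and the esr1 body were again lower in endosperm, by limma alone. All 8 endosperm libraries lay below the leaf in 13 of the 18 levels, a separation seen in 28.1% of all gene models for upstream CG, 50.7% for upstream CHG, 22.0% for upstream CHH, 24.8% for body CG, 26.7% for body CHG and 18.2% for body CHH. Of 17 tested levels 4 were lower in endosperm than in leaf after adjustment, 15 had a difference below 0 and 7 had an unadjusted p under 0.05. The called levels were upstream CHG of esr3 (-57.5 points, SE 5.71, limma adjusted p = 0.0143), upstream CG of esr3 (-55.4 points, SE 6.75, adjusted p = 0.0201), body CHG of esr1 (-61.1 points, SE 8.87, adjusted p = 0.0254) and upstream CHG of esr2 (-22.2 points, SE 4.90, adjusted p = 0.0477). In the quasi-binomial fit all 4 of these calls ended, at adjusted p-values of 0.0668 for upstream CHG of esr3, 0.149 for its upstream CG, 0.142 for body CHG of esr1 and 0.0672 for upstream CHG of esr2. Against whole seed the same levels passed in that fit, at 0.0160 for upstream CHG of esr3, 0.0230 for its upstream CG, 0.0279 for body CHG of esr1 and 0.0173 for upstream CHG of esr2. Few gene models of any kind passed the quasi-binomial fit against leaf in upstream CG: it called 1 of 36099, where limma called 63 in either direction. Among the alternatives that left no library out, the lowest all-gene count against leaf was 1 in upstream CHG and 0 in body CHG. With limma, over all gene models the share called lower than leaf was 2.74% for upstream CHG, 0.141% for upstream CG and 0.825% for body CHG, and it was 2.15% for upstream CHH, 1.59% for body CG and 1.85% for body CHH, where no esr gene was called. Here too the all-gene median was below 0 in every region and context, from -9.96 points in upstream CHG to -0.025 in body CHH. Counted in either direction, 11114 of 36072 gene models had an unadjusted p under 0.05 in upstream CHG. The count was 3591 of 36099 in upstream CG and 4507 of 37517 in upstream CHH. In the bodies it was 4916 of 31147 in CHG, 3674 of 30230 in CG and 3183 of 32529 in CHH. Upstream CHG of esr1 missed the threshold at -14.7 points (SE 4.60, limma adjusted p = 0.0816), and upstream CG of esr1 was -7.20 points (adjusted p = 0.592). The esr2 call was close to the threshold, and without single libraries its adjusted p ran from 0.0292 to 0.0700; it stayed under 0.05 without the 7-day endosperm and was above 0.05 without any of the others. The leaf is a single library and is assumed in the fit to vary like the other tissues, and both comparisons use the same endosperm libraries.

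Through endosperm development no level of the 3 genes had a trend that passed. Over the 18 days from day 7 to day 25, limma called 0 of the 17 tested levels in either direction, the quasi-binomial fit called 0, and 0 were under an unadjusted p of 0.05. The share of all gene models called in either direction was 0.0% for CG and CHG in both regions, 1.85% for upstream CHH and 0.0277% for body CHH. The upstream CHG change was -8.94 points for esr3 (SE 5.78, limma adjusted p = 0.595), -5.05 points for esr2 and -2.64 points for esr1. The median change over all gene models was -4.71 points. The upstream CHG levels of esr3 were 40.5 to 44.3% at days 7 and 9 and 27.8 to 32.2% in the 6 libraries from day 10 on, a step that was noticed after the values were seen and has no test. In the same libraries esr1 had 73.92 to 76.7% at days 7 and 9 and 64.86 to 71.99% from day 10 on, and esr2 had 73.52 to 76.12% at days 7 and 9 and 62.29 to 72.82% from day 10 on. The mean over all gene models was 50.8 and 48.7% at days 7 and 9, 50.4% at day 10 and as low as 42.2% at day 11. The part of this general change in the step was not tested. The body CHG changes were -17.3 points for esr2 (SE 14.3, limma adjusted p = 0.836) and -28.1 points for esr3 (SE 25.0, adjusted p = 0.845). The 20-day endosperm had the lowest body CG, CHG and CHH level of esr2 and the lowest body CHG level of esr1, and the 15-day endosperm had the lowest body CG and CHG level of esr3. In the bodies the lowest CG and CHG levels thus did not fall on the same day for all 3 genes. In upstream CG they did: day 11 was lowest, at 80.13% for esr1, 65.01% for esr2 and 32.7% for esr3. The 11-day endosperm also had the lowest mean upstream CG level over all gene models, 56.3%.

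Within a library the 3 genes share tissue and stretch of chromosome, so their levels can be set beside each other. They do not share depth. In endosperm the upstream regions of esr1, esr2 and esr3 received on average 14.4, 19.5 and 5.84 of every 1000000 calls. Reads can also be shared or lost between the copies, and the part of either in these gaps was not tested. In endosperm esr3 was below esr1 and below esr2 in 8 of 8 libraries for upstream CG and for upstream CHG. In CHG the mean gap was -36.3 points ± 3.52 (SD, n = 8) to esr1 and -36.1 points ± 4.58 (SD, n = 8) to esr2, while in whole seed it was 3.25 points to esr1 and -3.99 points to esr2, and in leaf 6.47 points to esr1 and -0.83 points to esr2. Upstream CHG of esr3 was therefore close to that of both other genes in seed and leaf and far below it in endosperm. Set against the endosperm minus whole seed difference of esr1, that of esr3 was -39.5 points further down in CHG and -52.2 points in CG, and set against that of esr2 it was -32.1 points in CHG and -38.0 points in CG. Each of these had the smallest exact two-sided permutation p of 0.022, which became 0.067 after adjustment over the 18 comparisons between pairs of genes, so none passed. Since the exact p cannot be smaller, a pair could pass only if enough of the 18 comparisons reached this bound. The adjusted value therefore cannot decide about a single pair. Between esr1 and esr2 the upstream CHG levels differed by -0.18 points ± 2.34 (SD, n = 8) in endosperm, esr2 minus esr1, against 7.38 and 7.09 points in 3- and 5-day whole seed and 7.30 points in leaf. That change of -7.42 points between endosperm and whole seed had the same exact permutation p of 0.022, adjusted 0.067. In the gene body the order was another: body CHG of esr2 was above that of esr1 in 8 of 8 endosperm libraries, by 32.5 points ± 11.5 (SD, n = 8), against 3.59 and 21.6 points in whole seed and -6.23 points in leaf (exact permutation p = 0.067, adjusted 0.15).

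The neighbouring gene models with values in all 3 tissues had other patterns. Upstream CHG of GRMZM2G115131, before esr2, was 3.40% ± 2.22 (SD, n = 8) in endosperm, 3.62% in whole seed and 11.7% in leaf, and its body CHG was 1.79% in endosperm and 1.76% in whole seed. Upstream CHG of GRMZM2G417835, after esr3, was 48.9% ± 7.35 (SD, n = 8) in endosperm, 57.9% in whole seed and 56.9% in leaf (limma adjusted p = 0.269), and its body CHG was 1.41% in endosperm and 1.85% in whole seed. GRMZM2G112793, the next one on, had an upstream CHG of 3.89% ± 1.07 (SD, n = 8) in endosperm, 8.77% in whole seed and 5.82% in leaf, and its upstream CHH was lower in endosperm, at 1.17%, than in whole seed, at 3.81% (limma adjusted p = 0.0286). The next one before, GRMZM2G424020, had no values in whole seed and none in its body. Its upstream CHG was 61.1% ± 13.6 (SD, n = 8) in endosperm, from 33.33 to 80%, and 71.0% in leaf, on as few as 9 calls. Its upstream CG was 79.3% ± 8.77 (SD, n = 8) in endosperm and 89.9% in leaf. In the 3 neighbouring bodies with calls, CHG methylation thus averaged 3.33% or less in every tissue. In a single library it reached 5.26% at most, where the esr bodies had 73.08% or more in each whole-seed and leaf library.

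Gene models with a symbol other than a LOC placeholder whose levels over the 11 libraries were nearest to an esr gene, by the root mean square difference, included several alpha-zein storage protein genes (z1 symbols), themselves a family of near-identical copies. For upstream CHG of esr3 they were mbd111, which encodes a methyl-CpG-binding domain protein, at 9.91 points (36.0% in endosperm, 84.5% in whole seed, 79.3% in leaf), z1C1_7 at 12.6 points and z1A1_5 at 13.3 points. Neither esr1 nor esr2 was near esr3, at 31.2 and 31.1 points. For upstream CHG of esr2 the nearest were z1C1_11 at 4.80, pco137813 at 4.91 and the phosphate transporter gene pht9 at 5.03 points, and for esr1 they were pht9 at 2.44, z1C1_6 at 2.56 and GLG1 at 3.30 points, with esr1 and esr2 4.23 points from each other. For body CHG the distances were larger. The nearest to esr1 were z1C1_7 at 18.5, z1C1_19 at 19.9 and TAC1 at 22.3 points, those to esr2 were z1C1_8 at 11.7, z1A2_2 at 11.8 and z1C2 at 12.9 points, and those to esr3 were z1C1_11 at 16.2, z1A2_2 at 16.6 and z1C1_6 at 17.4 points. Gene models that were not eligible by symbol lay nearer in each of these orders: among the other gene models mbd111 ranked 18 of 36071 for upstream CHG of esr3, and z1C1_11 ranked 383 of 36071 for that of esr2. Closeness here is a description of level and nothing more.

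Other genes of CLE signalling, among them receptors of the CLAVATA pathway and WUSCHEL-related homeobox factors, had 1 limma call against whole seed. In upstream CHG 11 of the 13 listed gene models were tested, 8 were below 0 and 1 was called, beside 14.6% of all gene models, with a median of -4.35 points against -8.67 over all gene models. The called gene was fea3, which encodes a receptor-like protein with leucine-rich repeats that takes part in meristem signalling, at 59.2% in endosperm, 78.6% in whole seed and 87.5% in leaf (-19.4 points, SE 4.53, limma adjusted p = 0.0281). In upstream CG, limma and the quasi-binomial fit called 0 of 12 tested, with 1 at an unadjusted p under 0.05. In body CHG both called 0 of 11, with 0 at an unadjusted p under 0.05. Over all gene models limma called 0.507% lower in upstream CG and 4.15% in body CHG after adjustment. At an unadjusted p under 0.05, in either direction, the counts over all gene models were 3502 of 36099 and 6315 of 31147. In upstream CHH limma called 0 of 12, beside 7.5% of all gene models, the quasi-binomial fit called 1, and 4 had an unadjusted p under 0.05. Over all gene models 7861 of 37517 had a limma unadjusted p under 0.05 in upstream CHH, in either direction. No quasi-binomial share over all gene models stands beside the counts of this list, so they are not a result about its genes. Against leaf limma called 1 of 11 lower in upstream CHG, beside 2.74% of all gene models, and the quasi-binomial fit called 0.

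Among genes known for other endosperm domains, upstream and body CHG held most of the calls. This list of 22 gene models holds genes of the basal transfer layer, which takes up sugars from the mother plant, of the aleurone and of the embryo-surrounding region, without esr1, esr2 and esr3; esr6 stands in both lists. In upstream CHG 22 were tested, 18 were below 0 and 4 were called, beside 14.6% of all gene models, with a median of -9.51 points: betl3 (-17.8 points, limma adjusted p = 0.0250) and betl4 (-17.3 points, adjusted p = 0.0427) of the transfer layer, sal1 (-17.8 points, adjusted p = 0.0125), which limits the number of aleurone layers, and ebe2 (-16.2 points, adjusted p = 0.0252). In body CHG 17 were tested, 13 were below 0 and 3 were called, beside 4.15% of all gene models, with a median of -0.981 points against -0.738 over all gene models. These were ebe2, at 46.7% in endosperm and 84.4% in whole seed (-37.8 points, adjusted p = 0.0438), meg2 (GRMZM2G088896) of the maternally expressed gene family, at 64.0% in endosperm and 95.4% in whole seed (-31.4 points, adjusted p = 0.0410), and ebe1, at 44.9% in endosperm and 74.0% in whole seed (-29.2 points, adjusted p = 0.0371). The quasi-binomial fit called 5 genes of this list in upstream CHG and 0 in body CHG, so the body CHG calls rest on limma. No quasi-binomial share over all gene models stands beside the counts of this list, so they are not a result about its genes. Among the alternatives that left no library out, the all-gene count against whole seed ran from 0 to 5737 in upstream CHG. In body CHG it ran from 0 to 1787. Against leaf, limma and the quasi-binomial fit called 0 of 22 in upstream CHG and 0 of 17 in body CHG, with 6 and 4 at an unadjusted p under 0.05. Of all gene models limma called 2.74% and 0.825% lower than leaf in these after adjustment. At an unadjusted p under 0.05, in either direction, the limma counts against leaf were 11114 of 36072 and 4916 of 31147 gene models. In upstream CHH limma called 1 of 22 lower than leaf, beside 2.15% of all gene models, and the quasi-binomial fit called 0. Against whole seed, both fits called 0 of 22 in upstream CG and 0 of 17 in body CG, with 4 upstream and 6 in the body at an unadjusted p under 0.05. The limma shares of all gene models called lower there after adjustment were 0.507% and 1.18%. At an unadjusted p under 0.05, in either direction, the counts over all gene models were 3502 of 36099 upstream and 3413 of 30230 in the body. In body CHH 1 of 18 tested was called by limma, beside 5.42% of all gene models, while the quasi-binomial fit called 2 and 3 had an unadjusted p under 0.05. It was the transfer layer gene betl2, at 2.58% in endosperm and 7.93% in whole seed (limma adjusted p = 0.0126). Over all gene models 6078 of 32529 had a limma unadjusted p under 0.05 in body CHH, in either direction.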

How the data were processed

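Genomic DNA was treated with bisulfite and sequenced. The submitters' processing notes name cutadapt, Bismark and Bowtie2; their versions and settings, the genome build and the upstream width were not given in the sources used here. Per the file headers, each deposited table lists methylated calls as a count for every gene model, with the level as a percent, by context (CG, CHG, CHH) and region (body, upstream). The authors deposited raw counts and computed the percent levels, to 2 decimals.

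Dividing count by level gave the total calls. Of 2378450 values above 0, 800474 fixed the total to within 0.1 call, and 100.0% of these were whole. Totals behind a methylated count of 0 were taken from the other contexts, and a region with 0 in all 3 contexts was treated as missing. The 181 organelle gene models were left out. Wilson intervals (95%) and the floor of 3 calls hold counting error alone, because without molecular identifiers reads may be copies of 1 molecule.

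Levels were fitted with limma (3.58.1, R 4.3.3), 1 fit per region and context over all 11 libraries. Gene models needed at least 10 calls in each library and a mean level of 1% or more in CG and CHG. The trend fit used day in the 8 endosperm libraries. P-values were adjusted (Benjamini-Hochberg) over all gene models. Single genes were compared by exact two-sided permutation. Other steps used Python 3.11.15, numpy 2.4.6, scipy 1.17.1, pandas 2.3.3 and matplotlib 3.10.9. The fits were tested on simulated data. P-values measure the spread between libraries, 1 per stage, which may be partly technical. Symbols were taken from NCBI RefSeq (assembly Zm-B73-NAM-5.0, no coordinates used), with a match for 18775 of 39475 nuclear gene models.

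Named were the 3 esr genes, up to 4 called genes per list and measure, the 3 nearest gene models with a symbol other than a LOC placeholder and the 2 nearest neighbours on each side. The genes and both lists were chosen with earlier results of these data known. The comparisons between esr genes, of calls per library, with gene models at 80% or more in whole seed, and the shares without overlap were added after seeing the data. Alternatives changed the call minimum, scale, moderation, model, centring, level filter and libraries.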

Additional observations from a re-analysis of the deposited data

Results flagged for a closer look

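In the 20-day endosperm the body CHH level of esr3 was 4.21%, the highest of the 8 endosperm libraries and further from the next highest than the spread of the others allows at the 95% level. It rests on 4 methylated of 95 calls, with a Wilson interval of 1.65 to 10.3%, and the next highest was 1.55% at day 15. Of the 18 levels looked at in this way 1 stood apart, and chance does so in about 1 of 20. Without this library the difference of esr3 body CHH from whole seed was -3.15 points with a limma adjusted p of 0.0163, against -2.72 points and 0.158 with it.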

How the results depend on the processing

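No paired analysis was possible because the labels give no replicate numbers that tissues share. The 5 calls against whole seed kept their direction under every alternative. The upstream CG call (1 gene, esr3) became 0 with day as a covariate and with only the 7- and 9-day endosperm, and ran from 0 to 1 with 1 library left out. The 3 upstream CHG calls became 1 with library medians subtracted, 0 with day as a covariate and 0 with only the 7- and 9-day endosperm, and ran from 0 to 3 with 1 library left out. The 1 body CHG call became 0 at a minimum of 20 calls, 2 on the arcsine scale, 2 with trended and robust moderation, 0 with day as a covariate and 0 with only the 7- and 9-day endosperm, and ran from 1 to 2 with 1 library left out; body CHH calls ran from 0 to 1. With day as a covariate, and with only the youngest endosperm, 0 of all gene models were called in upstream CG and CHG, and the esr3 upstream CHG difference was -47.7 points and -43.5 points. Against leaf, the upstream CG call (1) became 0 in the quasi-binomial fit; the upstream CHG calls (2) became 1 with trended and robust moderation, 1 with medians subtracted and 0 in the quasi-binomial fit, and ran from 1 to 3; the body CHG call (1) became 0 at a minimum of 20 calls and 0 in the quasi-binomial fit. The cause was not tested.

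Directions changed for levels that had not passed. Upstream CG of esr1 against seed was -2.66 points with day as a covariate and -1.11 to 1.55 with 1 library left out, in limma and in the single-gene comparison. With medians subtracted, upstream CHH against seed was 0.44 for esr1, 0.0788 for esr2 and 0.244 for esr3, and against leaf 0.454 for esr3. Against leaf, upstream CHH of esr1 ran from -0.0214 to 0.134 with 1 library left out, and body CHH of esr2 from -0.07 to 0.309, with -0.00036 on the arcsine scale. With 1 library left out, trends ran from -2.98 to 2.31 (esr2) and -4.78 to 9.14 (esr3) in upstream CG, -10.5 to 1.35 in upstream CHG (esr1), -0.0353 to 0.266 in upstream CHH (esr2), -27.5 to 4.13 in body CG (esr3) and -9.73 to 7.39 in body CHG (esr1). Medians subtracted gave trends of 4.70 (esr1) and 2.29 (esr2) in upstream CHG and -0.435 (esr2) in upstream CHH, and the quasi-binomial fit gave 1.97 in body CHG (esr1).

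Depth limits the gene bodies most: esr1 had 6 CG calls and 10 CHG calls at day 9. Over all gene models the upstream CHG count of 5291 was 0 without the 3-day seed and at most 8709 without another library.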
